A study of Mus musculus with 8 samples.

Results

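The calmodulin-dependent kinase genes examined here were Camk2a, Camk2b, Camk2d, Camk2g, Camkk1, Camkk2, Camk4, Camk1d and Camk1g. They were taken by gene symbol, and all 9 were found among the 15598 gene rows of the knockdown and cytoplasmic rescue tables and the 15489 rows of the nuclear rescue table. Of 551 different cassette exons in the splicing tables, 3 lay in these genes. They were in Camkk2, Camk2g and Camk2d, and the Camkk2 exon is filed under the symbol mKIAA0787.

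RNA was sequenced from mouse hippocampal neurons in culture, in 8 samples, 2 in each of 4 groups. The cytoplasmic rescue group carried AAV2/9 with Flag-Rbfox1_C_siMt plus siRNAs against Rbfox1 and Rbfox3, and the nuclear rescue group carried Flag-Rbfox1_N_siMt with the same siRNAs. The knockdown group carried EGFP and these siRNAs, and the control group EGFP and non-targeting siRNA. The SynI promoter drove the virus-borne gene in each group. Virus was added at 9 days in vitro (DIV) at 1500 genomic copies per cell for 12 hours, Accell siRNA followed at 10 DIV for 4 days, and every sample is labelled 14 DIV. The labels do not say whether the samples of a group were separate cultures, and the tables hold 1 combined value per group, so no spread between samples can be given. In such bulk RNA, fewer cells of a type and less RNA per cell cannot be told apart.

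Calcium entering an active neuron binds calmodulin, and calcium-loaded calmodulin switches these kinases on. The Camk2 genes encode the subunits of CaMKII, a large multi-subunit kinase of synapses that is central to synaptic plasticity. The Camkk genes encode upstream kinases that phosphorylate and activate the kinases of the Camk1 and Camk4 genes, and Camkk2 protein also activates AMP-activated kinase. Rbfox proteins bind the motif TGCATG, written here in DNA letters, and regulate splicing in the nucleus, and cytoplasmic Rbfox1 binds the 3′ UTRs of mRNAs.

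The exon sequences are shown because the splicing results turn on these exons. The sequences are from GENCODE M21 on GRCm38, with exons matched to the tables by gene, exon length and the lengths of both flanking introns, while positions from the tables are mm9. The Camkk2 exon has 43 nt, at 123186997 to 123187039 of chromosome 5 (minus strand, mm9), which is GRCm38 chr5:122736988-122737030. The Camk2g exon has 63 nt, at 21576888 to 21576950 of chromosome 14 (minus strand, mm9), which is GRCm38 chr14:20757666-20757728. The Camk2d exon has 42 nt, at 126511126 to 126511167 of chromosome 3 (plus strand, mm9), which is GRCm38 chr3:126808208-126808249. Each lies in coding sequence and is given 5′ to 3′ on the transcript strand.
Camkk2 exon: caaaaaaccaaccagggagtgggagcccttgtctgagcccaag
Camk2g exon: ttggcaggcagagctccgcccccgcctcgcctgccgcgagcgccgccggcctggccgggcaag
Camk2d exon: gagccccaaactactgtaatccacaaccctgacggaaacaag

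The 43-nt length of the Camkk2 exon is not a multiple of 3, so the form with the exon and the form without it use different reading frames after it. In GENCODE M21 the transcript Camkk2-201, with the exon, has 1764 nt of coding sequence (588 codons), of which 168 nt lie in its last coding exon. Camkk2-211, without the exon, has 1623 nt (541 codons), with 70 nt in its last coding exon. The annotated proteins thus end in different sequences. The Camk2g and Camk2d exons are multiples of 3 and keep the frame. The Camk2g exon is present in 3 annotated transcripts and skipped in 7. Of the Camk2d transcripts with both neighbouring exons as in the splicing tables, 1 holds the 42-nt exon and 11 skip it.

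The intron next to an exon could be read only where an annotated transcript runs through it, which was so downstream of the Camkk2 exon and on both sides of the Camk2d exon. TGCATG was searched on the transcript strand within 300 nt of the exon, as was its reverse complement CATGCA, and the 2 motifs can overlap. The first 240 nt after the Camkk2 exon (GRCm38 chr5:122736748-122736987, minus strand) and the last 240 nt before the Camk2d exon (GRCm38 chr3:126807968-126808207, plus strand) are shown with TGCATG in capitals.
Camkk2 downstream: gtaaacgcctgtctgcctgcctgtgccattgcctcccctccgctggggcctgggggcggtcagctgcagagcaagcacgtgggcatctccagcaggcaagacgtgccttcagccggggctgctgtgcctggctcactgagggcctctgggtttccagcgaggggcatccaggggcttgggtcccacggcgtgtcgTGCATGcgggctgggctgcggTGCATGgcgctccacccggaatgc
Camk2d upstream: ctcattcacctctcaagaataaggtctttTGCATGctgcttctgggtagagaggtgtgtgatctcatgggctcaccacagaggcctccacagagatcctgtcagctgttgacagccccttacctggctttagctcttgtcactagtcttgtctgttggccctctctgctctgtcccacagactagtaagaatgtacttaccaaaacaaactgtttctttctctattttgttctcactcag

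In the 300 nt after the Camkk2 exon, TGCATG occurred 3 times, starting 196, 217 and 295 nt from the exon. CATGCA occurred there 1 time, at 293 nt, overlapping the last TGCATG. Of 14669 downstream windows of the same length that annotated transcripts cover, 11.2% held TGCATG and 8.88% held CATGCA. Before the Camk2d exon TGCATG occurred 1 time, 211 nt upstream, where 10.0% of 10113 upstream windows hold it and 7.84% hold CATGCA. No CATGCA was found on either side of the Camk2d exon, and no TGCATG in the 300 nt after it. These matches describe the sequence and are not evidence of binding.

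Rbfox1 RNA measured 16.1 FPKM in the cytoplasmic rescue, 38.2 in the nuclear rescue, 1.94 in the knockdown and 25.7 in control, where FPKM is a fragment count scaled to transcript length and library size. Vector-borne and endogenous Rbfox1 are not separated in these values, and the nuclear and cytoplasmic rescues differ in the amount of Rbfox1 RNA as well as in isoform. Rbfox3 was at 1.59 FPKM in the cytoplasmic rescue, 1.53 in the nuclear rescue, 1.59 in the knockdown and 12.4 in control. Rbfox2 was at 33.2, 17.7, 42.1 and 35.4 FPKM in the same order of groups. It was called lower in the nuclear rescue than in the knockdown (log2 fold change -1.25, q = 1.72e-09 in the authors' deposited table). The pan-neuronal markers, 8 of 9 measured, summed to 2290 to 2352 FPKM in the 4 groups with none called in a table, and hippocampal markers (4 of 4) to 24.5 to 29.2 FPKM. Single pan-neuronal markers shifted in both directions within that sum. Tubb3 was at 408 FPKM in the knockdown and 291 in control, and Snap25 at 323 and 456. The cultures also held astrocyte markers (8 of 8 measured, 992 to 1135 FPKM), oligodendrocyte lineage markers (10 of 10, 273 to 302 FPKM) and microglia markers (8 of 9, 6.92 to 12.1 FPKM), and no measured marker was below 0.1 FPKM in a group. Library totals were not used here, so depth per sample is unknown.

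Among the 9 kinase genes, Camk2b gave the most RNA per length in each group. Camk2b encodes the beta subunit, which binds actin, and measured 125 FPKM in the cytoplasmic rescue, 114 in the nuclear rescue, 110.3 in the knockdown and 114 in control. The highest group level was 1.13 times the lowest, the narrowest range among the 9 genes. Camk2a, the alpha subunit of forebrain excitatory neurons, was at 37.1 FPKM in the cytoplasmic rescue, 40.6 in the nuclear rescue, 31.4 in the knockdown and 28.6 in control. Both rescue values lay above the knockdown value, and control was lowest.

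The gamma subunit gene Camk2g was at 24.9 FPKM in the cytoplasmic rescue, 26.8 in the nuclear rescue, 23.5 in the knockdown and 28.9 in control. The delta subunit gene Camk2d, the main CaMKII gene of the heart, was at 13.5, 12.5, 11.1 and 12.5 FPKM in that order. For both genes the knockdown value was the lowest of the 4. The subunit genes together summed to 201 FPKM in the cytoplasmic rescue, 194 in the nuclear rescue, 176 in the knockdown and 184 in control. Camk2b made up 62.3%, 58.8%, 62.6% and 61.8% of that sum, and Camk2a 18.5%, 20.9%, 17.8% and 15.6%. Camk2g made up 12.4%, 13.8%, 13.3% and 15.7%.

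The upstream kinase genes had the widest ranges between groups. Camkk1 measured 28.4 FPKM in the cytoplasmic rescue, 19.2 in the nuclear rescue, 17.9 in the knockdown and 25.6 in control. The cytoplasmic rescue and control thus stood together at the high end, and the nuclear rescue and knockdown at the low end. Expressed against control, Camkk1 was at 111% in the cytoplasmic rescue, 75.1% in the nuclear rescue and 69.9% in the knockdown. Camkk2 followed another order, with 26.5 FPKM in the cytoplasmic rescue, 21.9 in the nuclear rescue, 20.6 in the knockdown and 15.5 in control. Control was lowest for Camkk2, and the highest group was 1.71 times the lowest. The ratio of Camkk1 to Camkk2 was 1.07 in the cytoplasmic rescue, 0.876 in the nuclear rescue, 0.867 in the knockdown and 1.65 in control.

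Of the downstream kinase genes, Camk4, whose nuclear protein phosphorylates the transcription factor CREB, was at 25.8 FPKM in the cytoplasmic rescue, 23.5 in the nuclear rescue, 19.99 in the knockdown and 19.0 in control. Camk1d measured 8.31, 7.53, 6.73 and 6.85 FPKM in the same order and was the lowest of the 9 genes in each group. Camk1g, the gamma isoform of CaMKI, ran the other way, at 19.0 FPKM in the cytoplasmic rescue, 20.002 in the nuclear rescue, 21 in the knockdown and 23.9 in control.

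**Figure D1:**
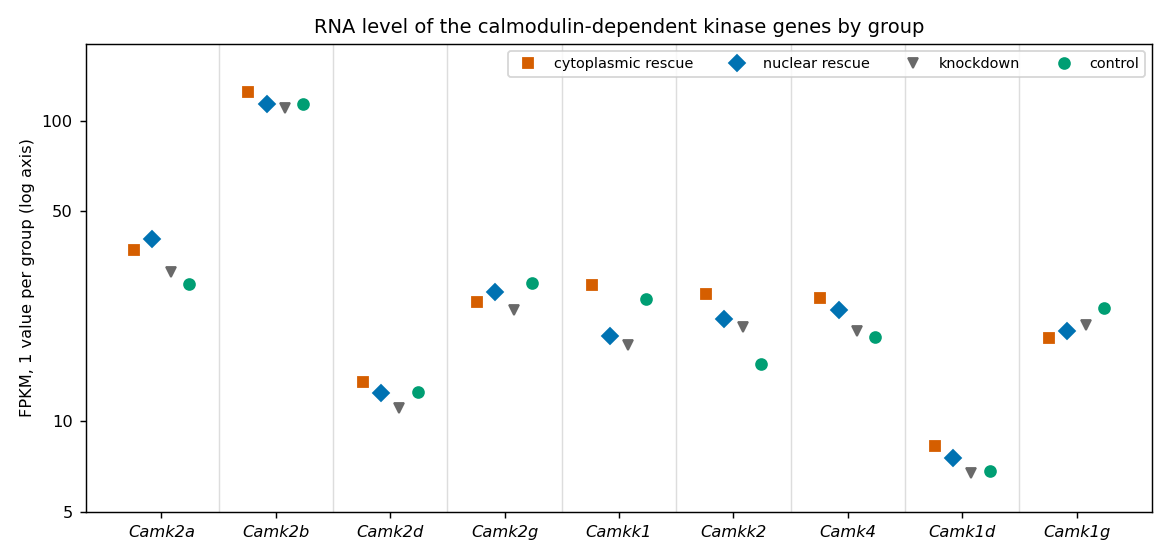
RNA level of the 9 calmodulin-dependent kinase genes, with FPKM on a log axis and 1 point per group because the tables hold 1 value per group. Camk2b stands at 110.3 to 125 FPKM, Camk1d at 6.73 to 8.31 FPKM, and for Camkk1 the cytoplasmic rescue (28.4) and control (25.6) lie above the nuclear rescue (19.2) and knockdown (17.9).

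The comparison of knockdown with control asks which of these genes depend on Rbfox1 and Rbfox3. Camkk1 fell in the knockdown, by 0.52 on the log2 scale (95% interval -0.77 to -0.27, p = 5.59e-05, q = 0.00870 in the authors' deposited table). The error behind each interval is the fold change divided by the authors' test statistic, called the implied error, and was 0.128 here. Camkk1 was the 1 member of 9 past q = 0.05, where 2.35% of all genes passed and 1.58% passed with a lower level. Camkk2 had a log2 fold change of 0.42 (implied error 0.139, p = 0.00280) and missed the threshold with q = 0.158 in the authors' deposited table. Camk2g had -0.30 (p = 0.0282, q = 0.610) in the authors' deposited table. Those 3 genes were the members with an unadjusted p below 0.05, a level that 10.9% of all genes reached.

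The other 6 members had log2 fold changes between -0.19 (Camk1g) and 0.13 (Camk2a) in the authors' deposited table, with 95% intervals that include 0. The median over the 9 members was -0.04, against 0.02 over all genes with a finite change. Levels were above control for 3 of 9 members and for 8581 of 15507 genes. Marker sums also differed between these groups. Interneuron markers (10 of 10 measured, 5 called) summed to 486 FPKM in the knockdown and 630 in control, excitatory neuron markers (5 of 6, 1 called) to 277 and 313 FPKM, and microglia markers (3 called) to 6.97 and 12.1 FPKM. The called interneuron markers did not move together, as Gad2, Npy, Vip and Cck were lower in the knockdown and Calb2 was higher. Npy measured 38.6 FPKM in the knockdown and 155 in control, and Calb2 171 and 90.1 FPKM. The part of these marker differences in the Camkk1 result was not tested.

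Adding the cytoplasmic isoform to the knockdown raised Camkk1 by 0.67 on the log2 scale (95% interval 0.39 to 0.95, implied error 0.143, p = 3.07e-06, q = 7.93e-04 in the authors' deposited table). It was again 1 of 9 members past q = 0.05, with 0.506% of all genes past it and 0.333% higher. In this comparison Camk4 had a log2 fold change of 0.37 (p = 0.0318), Camkk2 0.36 (p = 0.0208) and Camk1d 0.30 (p = 0.0313), each short of the threshold with q of 0.526 or more in the authors' deposited table. With Camkk1 they make 4 of 9 members with an unadjusted p below 0.05, against 5.33% of all genes. The remaining values in the authors' deposited table were 0.28 for Camk2d, 0.24 for Camk2a, 0.18 for Camk2b, 0.08 for Camk2g and -0.14 for Camk1g. The member median was 0.28 against -0.06 over all genes, and 8 of 9 members were above the knockdown, as were 5089 of 15514 genes. Interneuron markers summed to 494 FPKM in the cytoplasmic rescue and 486 in the knockdown, with 1 of 10 called, Npy (57.0 and 38.6 FPKM). Excitatory neuron markers summed to 271 FPKM in the cytoplasmic rescue and 277 in the knockdown, microglia markers to 9.02 and 6.97, and astrocyte markers to 992 and 1135, with none called. The part of these markers in the Camkk1 result was not tested.

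With the nuclear isoform, 0 of 9 members passed q = 0.05, by the authors' own Cufflinks test, where 0.11% of all genes passed. Camkk1 had a log2 fold change of 0.10 (95% interval -0.18 to 0.38, p = 0.469) in the authors' deposited table. Camk2a had the lowest p of the members, with a log2 fold change of 0.37 (p = 0.0430, q = 0.741) in the authors' deposited table. It was the 1 member with an unadjusted p below 0.05, a level that 1.05% of genes reached. The other 7 members lay between -0.07 (Camk1g) and 0.23 (Camk4) in the authors' deposited table. The member median was 0.16 against -0.02 over all genes, and 8 of 9 members were above the knockdown, as were 6769 of 15419 genes. All 3 comparisons use the same knockdown values, so their directions are not independent of each other.

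**Figure D2:**
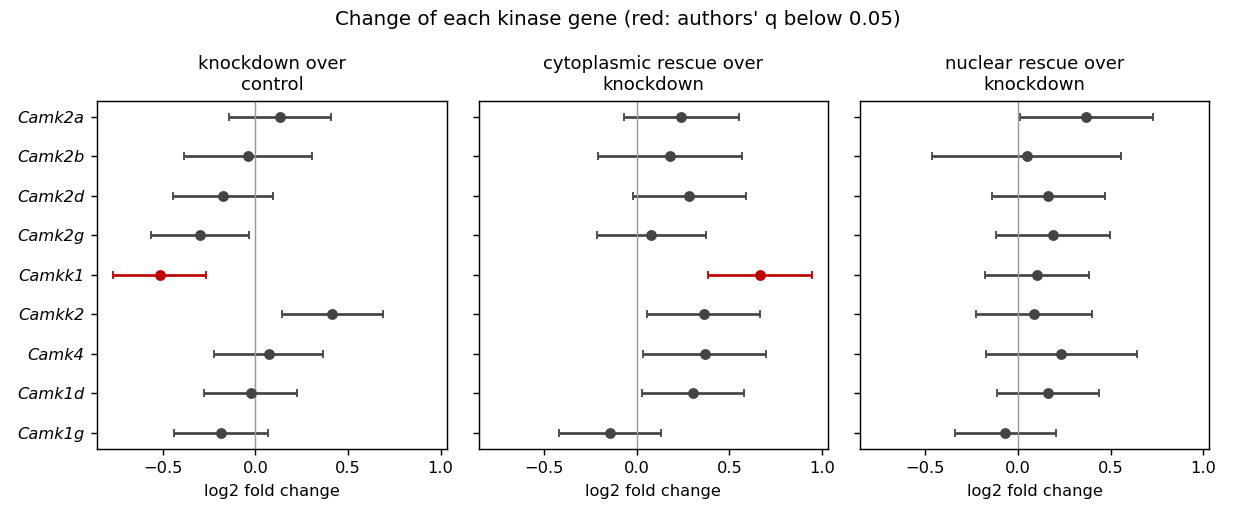
Log2 fold change of each kinase gene in the 3 deposited comparisons, with bars of 95% intervals from the implied errors and red for the authors' q below 0.05. Camkk1 is red in the knockdown (-0.52) and in the cytoplasmic rescue (0.67) and lies at 0.10 in the nuclear rescue.

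Setting the rescues against each other tests whether the isoforms differ. For Camkk1 the cytoplasmic minus nuclear difference was 0.56 on the log2 scale (95% interval 0.17 to 0.96). A z test from the errors that the authors' statistics imply gave p = 0.00526, which did not pass after Benjamini-Hochberg adjustment over 15365 genes (adjusted p = 1). That test counts the error of the shared knockdown in both rescues. With the larger of the errors alone the adjusted p was 0.0476, so the call for Camkk1 turns on how the shared error is treated. By the z test 0.026% of genes passed, and by the larger error alone 0.169%. For Camkk2 the difference was 0.27 (95% interval -0.16 to 0.71, unadjusted p = 0.221 from the same errors of the authors' table). The other 7 members differed by -0.13 (Camk2a) to 0.14 (Camk1d), with intervals that include 0 and reach as far as -0.60 for Camk2a and 0.78 for Camk2b. The amount of Rbfox1 RNA and the isoform cannot be told apart here, and Rbfox2, at 33.2 FPKM in the cytoplasmic and 17.7 in the nuclear rescue, moved too, and its part in the difference was not tested.

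The genes whose 3 log2 fold changes lay nearest to those of Camkk1, among 8300 genes with at least 5 FPKM in each group, were Ociad2, Fam131a, Snord116l2, Gpr158 and Snhg11, at Euclidean distances of 0.0608 to 0.166. Ociad2 measured 42.6 FPKM in the cytoplasmic rescue, 30.2 in the nuclear rescue, 28.0 in the knockdown and 39.9 in control. It passed q = 0.05 in the cytoplasmic rescue and the knockdown tables, as did Gpr158, in the authors' deposited tables. Fam131a and Snord116l2 passed in no authors' deposited table, so the likeness is one of group values.

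Splicing of Camkk2, Camk2g and Camk2d also differed between groups. The splicing tables are lists of called exons, so exons of the other 6 members were not analysed, and the tests below cannot show how unusual a change is among all exons. Inclusion is given as the authors' inclusion fraction and as the share of junction reads that enter or leave the exon. Such reads include both junctions of an included exon and 1 of a skipped exon, so the share runs above the fraction. Fisher's exact tests (two-sided, adjusted over the exons of a table) compare reads of pooled libraries, and these and the Wilson intervals cover counting error only. A fragment that spans both junctions of an included exon may be counted at each, so the summed reads can understate that error.

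The Camkk2 exon had an inclusion fraction of 0.657 in the cytoplasmic rescue, 0.813 in the nuclear rescue, 0.326 in the knockdown and 0.686 in control. The knockdown stood lowest, the cytoplasmic rescue was next to control and the nuclear rescue was above both. Behind these values were 684 inclusion and 199 skipping reads in the cytoplasmic rescue, 719 and 121 in the nuclear rescue, 217 and 274 in the knockdown, and 387 and 115 in control. The share of junction reads was 77.5% in the cytoplasmic rescue (95% Wilson interval 74.6 to 80.1), 85.6% in the nuclear rescue (83.1 to 87.8), 44.2% in the knockdown (39.9 to 48.6) and 77.1% in control (73.2 to 80.6). Coverage of the exon relative to the mean of its neighbours was also highest in the nuclear rescue and lowest in the knockdown, with 1.44 in the cytoplasmic rescue, 1.84 in the nuclear rescue, 0.677 in the knockdown and 1.52 in control.

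Camkk2 inclusion fell by 32.9 percentage points of junction reads in the knockdown relative to control (Fisher's exact adjusted p = 2.83e-25). The exon ranked 2 of 214 in the knockdown table by size of change in inclusion fraction. In the cytoplasmic rescue the share was 33.3 points higher than in the knockdown (Fisher's exact adjusted p = 4.01e-33), and in the nuclear rescue 41.4 points higher (adjusted p = 6.83e-55). It ranked 1 of 150 and 1 of 318 in those tables.

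The Camk2g exon had an inclusion fraction of 0.410 in the cytoplasmic rescue, 0.599 in the nuclear rescue, 0.137 in the knockdown and 0.352 in control. There were 256 inclusion and 228 skipping reads in the cytoplasmic rescue, 435 and 189 in the nuclear rescue, 72 and 288 in the knockdown, and 222 and 268 in control. The junction share was 52.9% in the cytoplasmic rescue (48.4 to 57.3), 69.7% in the nuclear rescue (66 to 73.2), 20% in the knockdown (16.2 to 24.4) and 45.3% in control (41.0 to 49.7). By this fraction most Camk2g transcripts skipped the exon in control, and the nuclear rescue was the 1 group in which the inclusion fraction passed 0.5. The share fell by 25.3 points in the knockdown relative to control (Fisher's exact adjusted p = 2.85e-13). It was 32.9 points higher in the cytoplasmic rescue than in the knockdown (Fisher's exact adjusted p = 2.42e-21) and 49.7 points higher in the nuclear rescue than in the knockdown (adjusted p = 1.12e-51).

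The Camk2d exon was listed in the knockdown and cytoplasmic rescue tables and not in the nuclear rescue table, so its nuclear value was not analysed. Its inclusion fraction was 0.545 in the cytoplasmic rescue, 0.350 in the knockdown and 0.508 in control. The junction share was 66.7% in the cytoplasmic rescue (60.1 to 72.7), 47.7% in the knockdown (40.3 to 55.1) and 64.7% in control (57.2 to 71.5). The share fell by 17 points in the knockdown relative to control (Fisher's exact adjusted p = 0.00863) and was 19.0 points higher in the cytoplasmic rescue than in the knockdown (adjusted p = 0.00133). With inclusion reads halved, the Fisher's exact adjusted p was 0.0389 for knockdown against control and 0.0140 for cytoplasmic rescue against knockdown.

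The junctions on the sides of the Camk2d exon were unequally used. The upstream junction had 21 reads in the cytoplasmic rescue, 6 in the knockdown and 12 in control, and the downstream junction 121, 76 and 96. In GENCODE M21 the 42-nt exon follows a 60-nt exon in 4 transcripts and the 38-nt exon used by the splicing table in 1. From the upstream junction alone the knockdown and control shares differed by -10.7 points with an adjusted p of 0.0958, and from the downstream junction alone by -16.2 points with an adjusted p of 0.0213. For Camkk2 and Camk2g the upstream and downstream junctions carried similar numbers of reads, such as 113 and 104 for Camkk2 and 39 and 33 for Camk2g in the knockdown.

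**Figure D3:**
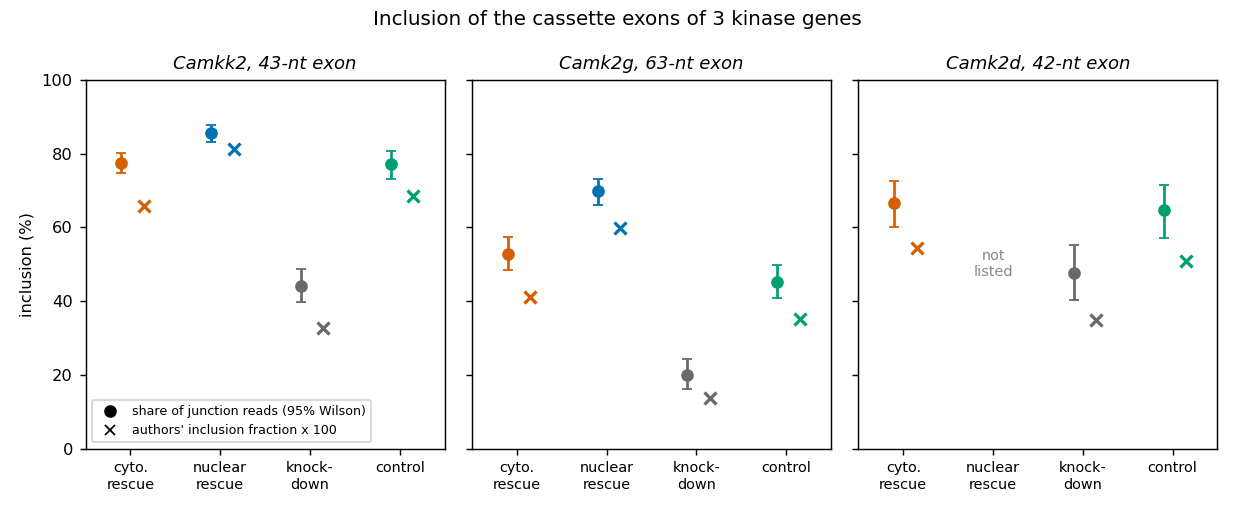
Inclusion in percent of the Camkk2, Camk2g and Camk2d exons by group. Circles are the share of junction reads with 95% Wilson intervals and crosses the authors' inclusion fraction times 100. The knockdown is lowest in each panel, with junction shares of 44.2%, 20% and 47.7%, and Camk2d was not listed for the nuclear rescue.

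Taken over the tables, 3 of 3 listed kinase exons were less included in the knockdown, where 42.5% of the 214 exons passed the same test and 29% passed as less included. In the cytoplasmic rescue 3 of 3 were more included, where 33.3% of 150 exons passed and 24% as more included, and 22% passed with inclusion reads halved. In the nuclear rescue 2 of 2 listed kinase exons were more included, where 59.4% of 318 exons passed and 29.9% as more included. Camk2d was not listed there. The kinase exons are in these tables because the authors called them as changed, so that they pass was largely fixed beforehand. These counts therefore do not show that kinase exons changed more often than others.

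**Figure D4:**
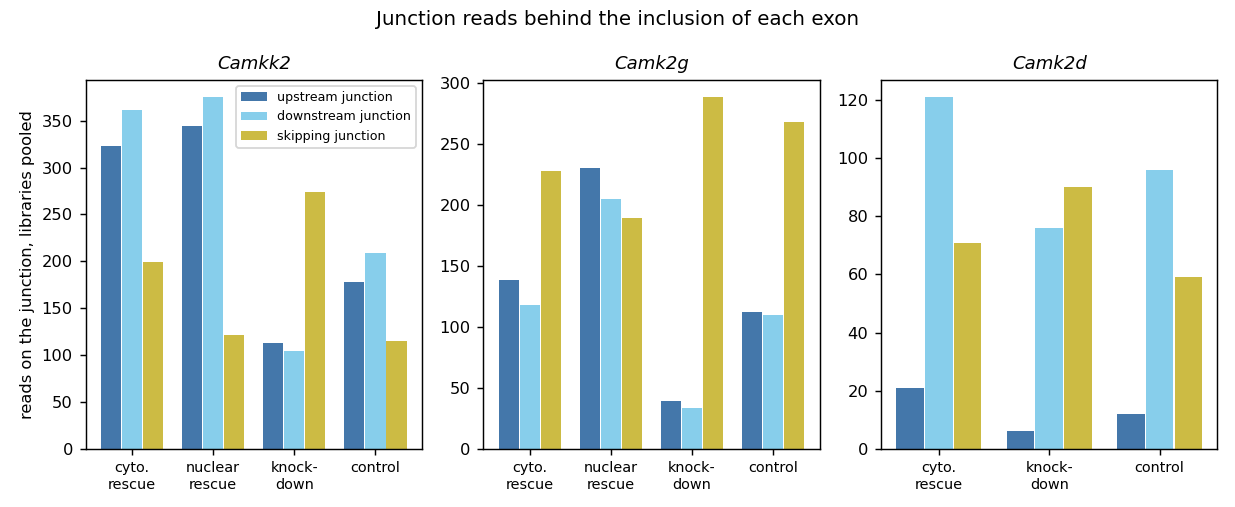
Reads on the upstream, downstream and skipping junctions of each exon by group, libraries of a group pooled, with axes that start at 0 and differ between panels. In the knockdown, skipping reads exceed those of either inclusion junction in each gene (274, 288 and 90 skipping reads), and the Camk2d upstream junction has 6 to 21 reads.

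Between the rescues, the nuclear isoform gave more inclusion than the cytoplasmic isoform for both exons listed in both tables. For Camkk2 the cytoplasmic minus nuclear share was -8.13 points (Fisher's exact adjusted p = 1.05e-04 over 45 exons), and for Camk2g -16.8 points (adjusted p = 1.77e-07). In that comparison 31.1% of exons passed. The nuclear rescue also held more Rbfox1 RNA, and amount and isoform cannot be told apart. Rbfox2 differed too, at 33.2 FPKM in the cytoplasmic and 17.7 in the nuclear rescue, and its part in these exon differences was not tested.

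No difference between the cytoplasmic rescue and control passed at these exons by this test after adjustment. For Camk2g the unadjusted p of Fisher's exact test was 0.0210, so a full return to control is not shown. The exons compared were those listed both for the knockdown and for the rescue concerned, with the same knockdown values in each. That selection favours exons at which rescue and control both stand apart from the knockdown, so closeness to control is partly built in. The cytoplasmic share differed from control by 0.37 points for Camkk2 (adjusted p = 1), 7.59 points for Camk2g (Fisher's exact adjusted p = 0.231) and 2.0 points for Camk2d (adjusted p = 1), and 6.25% of 48 exons passed. The nuclear rescue exceeded control by 8.5 points for Camkk2 (Fisher's exact adjusted p = 0.00143) and by 24.4 points for Camk2g (adjusted p = 1.49e-14), where 16.9% of 65 exons passed and 7.69% were more included.

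Multiplying each gene's FPKM by its inclusion fraction splits the level into the forms with and without the exon, with no error attached. The fraction of the exon is thereby applied to all RNA of the gene, which was not tested. Camkk2 with the exon came to 17.4 FPKM in the cytoplasmic rescue, 17.8 in the nuclear rescue, 6.73 in the knockdown and 10.6 in control. Camkk2 without it came to 9.10, 4.10, 13.9 and 4.86 FPKM in that order. By these group values the knockdown stood above control in total Camkk2 RNA and below it in the form with the exon. The difference in total was not called (q = 0.158 in the authors' deposited table). Camk2g with its exon came to 10.2 FPKM in the cytoplasmic rescue, 16.1 in the nuclear rescue, 3.22 in the knockdown and 10.2 in control. Camk2g without it came to 14.7, 10.8, 20.3 and 18.7 FPKM. For Camk2d the form with the exon came to 7.38 FPKM in the cytoplasmic rescue, 3.89 in the knockdown and 6.37 in control. The Camk2d fraction was taken with the 38-nt exon as upstream neighbour, while 4 annotated transcripts have a 60-nt exon there. The Camk2d split may therefore not describe all RNA of the gene.

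**Figure D5:**
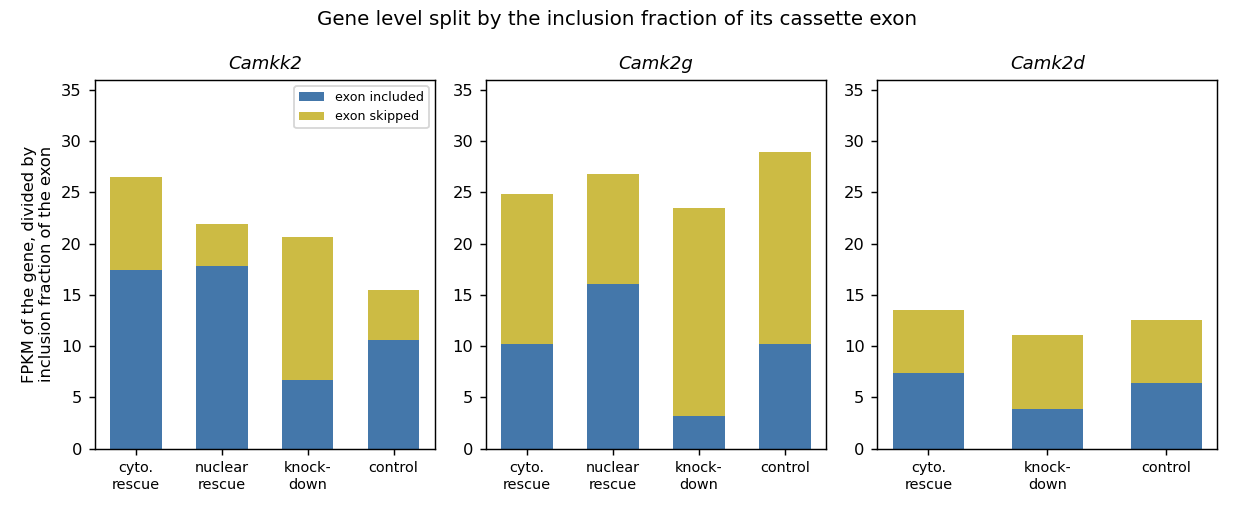
FPKM of Camkk2, Camk2g and Camk2d by group, divided into the part with the exon (blue) and without it (yellow) by the authors' inclusion fraction. The blue part is smallest in the knockdown in each panel, at 6.73, 3.22 and 3.89 FPKM. The Camk2d fraction was taken with the 38-nt exon as upstream neighbour, so that panel may not describe all RNA of the gene.

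Among the 27 exons listed in all 3 tables, those nearest to the Camkk2 exon in inclusion relative to control were in Eif4g3, Eml1, Prpf18, Camk2g and Snap25, at Euclidean distances of 0.175 to 0.208. Nearest to the Camk2g exon were those of Prpf18, Eml1, Eif4g3, Camkk2 and Tsc2, at 0.118 to 0.236. The Prpf18 exon, for example, had inclusion fractions of 0.408 in the cytoplasmic rescue, 0.501 in the nuclear rescue, 0.183 in the knockdown and 0.366 in control. The likeness is measured over 3 differences from control, which share the control values.

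Other genes of the calmodulin pathway were taken from lists of 61 genes, of which 58 were measured in the knockdown table and 59 in each rescue table. In the knockdown 2 of 58 were called, both lower, where 2.35% of all genes were called and 1.58% as lower, so the count is near that of the whole table. Mylk, the myosin light chain kinase of muscle and other cells, was at 2.13 FPKM in the knockdown and 3.45 in control (log2 fold change -0.70, q = 1.79e-04 in the authors' deposited table). Pcp4l1, a relative of the calmodulin regulator Pcp4, was at 12.8 FPKM in the knockdown and 22.2 in control (log2 fold change -0.79, q = 3.88e-06 in the authors' deposited table). Of the 58, 26 lay above control and 32 below, with a median of -0.02 and 9 at an unadjusted p below 0.05, a level that 10.9% of all genes reached. In the cytoplasmic rescue 0 of 59 were called by the authors' test, where 0.506% of all genes were, with 2 at an unadjusted p below 0.05 (5.33% of all genes) and a median of -0.03. In the nuclear rescue 0 of 59 were called by the authors' test, where 0.11% of all genes were, with 1 at an unadjusted p below 0.05 (1.05% of all genes) and a median of -0.01.

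By list, the 16 measured other calmodulin kinases and relatives had a median log2 fold change of 0.05 in the knockdown, the 8 genes of calmodulin and its buffers -0.05, the 12 inhibitors and phosphatases -0.13, and the 22 targets and partners -0.03. In the knockdown, 9 of the 12 inhibitors and phosphatases lay below control, as did 6926 of 15507 genes. By the authors' test 0 of the 12 were called, where 2.35% of all genes were. An unadjusted p below 0.05 in that test was reached by 4 of the 12 and by 10.9% of all genes. The calmodulin genes themselves, which encode the same protein, were abundant, with Calm2 at 1650 FPKM in the cytoplasmic rescue, 1494 in the nuclear rescue, 1421 in the knockdown and 1574 in control.

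Cassette exons of 6 pathway genes were listed, all of them in the nuclear rescue table. None was listed for the knockdown against control, so no control value was available for them. Of the 318 exons listed for the nuclear rescue, 59.4% passed the same Fisher's exact test, so passing it was common there. An exon of Grin1, the obligatory subunit of NMDA receptors, had an inclusion fraction of 0.206 in the nuclear rescue and 0.004 in the knockdown (Fisher's exact adjusted p = 3.52e-70). The Kalrn exon, in a protein of dendritic spines, was at 0.493 in the nuclear rescue and 0.216 in the knockdown (Fisher's exact adjusted p = 4.47e-27). The Dclk2 exon, in a doublecortin-like kinase, was at 0.325 in the nuclear rescue and 0.158 in the knockdown (Fisher's exact adjusted p = 1.33e-06), but from its upstream junction alone the adjusted p was 0.107. Cask, a synaptic scaffold with a kinase-like domain, had an exon at 0.910 in the nuclear rescue and 0.809 in the knockdown (Fisher's exact adjusted p = 0.00850).

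The exons of Ppp3ca and Dclk1 went the other way. The Ppp3ca exon, in the catalytic subunit of the calmodulin-activated phosphatase calcineurin, was at 0.705 in the nuclear rescue and 0.865 in the knockdown (Fisher's exact adjusted p = 1.88e-40). The Dclk1 exon was at 0.363 in the nuclear rescue and 0.509 in the knockdown (Fisher's exact adjusted p = 8.53e-11), and at 0.390 in the cytoplasmic rescue (adjusted p = 1.15e-04 against the knockdown). Dclk1 was the 1 pathway gene outside the 9 kinases with an exon in the cytoplasmic rescue table.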

How the data were processed

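RNA from 8 samples was sequenced as paired 50-nt reads from rRNA-depleted libraries without strand information, per the labels' protocols. CASAVA and Cufflinks were used with mm9, per the submitters' processing notes, with versions not given in the sources used here. Of the 6 deposited tables, the authors made 3 for expression, with 1 FPKM per group, a log2 fold change and a test statistic (both treated as a score, since a group at 0 FPKM gives an extreme value), and the authors' p-value and q-value. The authors deposited 3 SpliceTrap tables (named so by the files) of called cassette exons, with the deposited inclusion fraction, a splice change score, a p-value, junction read counts and coverage signal per group. Another 36 value columns of these tables were not used. Overlap of cassette exons filed under other gene symbols with the kinase loci was checked and none was found.

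Calls are the authors' q below 0.05. The implied error is the log2 fold change over the test statistic, without sign. The authors' p equalled the two-sided normal tail within 2.81e-06. Rescues were compared by a z test, and junction reads by Fisher's exact test, both with Benjamini-Hochberg adjustment (scipy 1.17.1, pandas 2.3.3, Python 3.11.15) and tested on simulated data. The simulated errors were independent between the rescues, and the simulated reads had counting error only. The shared knockdown, the spread between samples and fragments counted at both junctions were therefore not covered by the simulation. Tests on values per library were planned, and group values do not allow them. Over the tables an exon had 19 to 13410 junction reads in a group. Member implied errors were 0.128 to 0.260.

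Members and lists were chosen with earlier results of these data known. All members were named, pathway genes where called or with a listed exon, and the 5 nearest genes or exons of called members; Calm2 was named after its values were seen. The rescue and control exon comparison, the single-junction tests and the motif search were added after the values were seen. Alternatives were other thresholds, pseudocounts, FPKM and read minimums, halved inclusion reads and centring on the median.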

Additional observations from a re-analysis of the deposited data

Results flagged for a closer look

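The cytoplasmic and nuclear rescues differed in a test of the difference itself at both kinase exons listed for both rescues. The share of junction reads that include the Camkk2 exon was 77.5% in the cytoplasmic rescue and 85.6% in the nuclear rescue, a difference of -8.13 points (Fisher's exact adjusted p = 1.05e-04). For the Camk2g exon it was 52.9% in the cytoplasmic rescue and 69.7% in the nuclear rescue, a difference of -16.8 points (Fisher's exact adjusted p = 1.77e-07). These tests compare pooled reads and do not measure the spread between samples. Rbfox1 RNA was at 16.1 FPKM in the cytoplasmic rescue and 38.2 in the nuclear rescue, so that isoform and amount cannot be told apart. Rbfox2 RNA was at 33.2 FPKM in the cytoplasmic and 17.7 in the nuclear rescue, and its part was not tested.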

How the results depend on the processing

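No paired analysis was possible because the tables hold 1 value per group, and for the same reason no replicate could be left out. Of 48 settings for the counts of called genes and exons, 46 kept the count within 1.5 times. Where a call also needed a log2(FPKM + 1) difference of 0.5 or more, 0 members were called in the knockdown, because Camkk1 fell short. With the larger error alone in the z test, 1 member (Camkk1) differed between the cytoplasmic and nuclear rescues. The 81 pseudocount and centring settings for members' log2 fold changes moved none by more than its implied error and changed no sign. Of 45 exon settings 44 gave the same call, and the exception was Camk2d in the knockdown from the upstream junction alone (-10.7 points, Fisher's exact adjusted p = 0.0958). A minimum splice change of 0.2 also dropped Camk2d in the knockdown (-0.158) and the cytoplasmic rescue (0.195), so that 2 of 3 kinase exons passed in each. Over whole tables, halving the inclusion reads left 69 of 91 exons called in the knockdown, 33 of 50 in the cytoplasmic rescue and 169 of 189 in the nuclear rescue. The implied errors limit what can be called: Camkk2, at 0.42 with an implied error of 0.139 in the knockdown, had q = 0.158 in the authors' deposited table.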
